A study of Mus musculus with 6 samples.

Results

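The Zfp genes are the mouse genes named "zinc finger protein", most of which encode a row of Cys2His2 fingers. The genes described here are the 185 protein-coding genes whose symbol starts with Zfp and whose mean over the 6 libraries was at least 1 FPKM, out of 394 protein-coding Zfp genes and 9443 genes of any kind that reached this level. FPKM is a fragment count divided by gene length in kilobases and by the total of the library. Zfp36, Zfp36l1 and Zfp36l2, which encode CCCH-type RNA-decay proteins, were left out. The genes were thus chosen by their mean level, which is a description and not a result.

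RNA was sequenced from bone marrow-derived macrophages of the mouse, primary cells grown out of marrow in culture. There were 3 libraries from macrophages labelled NSUN2-KO and 3 from macrophages labelled NC. All 6 cultures had been brought to the inflammatory M1 state with LPS and IFN-γ, and no unstimulated cells were analysed here. The NSUN2 enzyme methylates cytosines of RNA, above all in tRNAs. The meaning of NC is not spelled out in the labels, nor are the way the knockout was made, the age or sex of the mice, or the animal behind each library, so that p-values measure the spread between these samples, which may in part be technical. The comparison, NSUN2-KO against NC, asks how loss of NSUN2 altered the RNA of M1 macrophages, here within 1 large family of DNA- and RNA-binding proteins.

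A Cys2His2 finger folds around a zinc ion held by a pair of cysteines and a pair of histidines, and successive fingers read successive bases of DNA. In many Zfp proteins the fingers follow a KRAB domain, which recruits the corepressor TRIM28 (KAP1). TRIM28 brings in the histone methyltransferase SETDB1, HP1 proteins and the NuRD deacetylase complex, and the main known targets are endogenous retroviruses and other repeats. KRAB-type genes lie in clusters of tandem copies and evolve quickly. Zfp genes without a KRAB domain include promoter-binding activators, corepressor subunits, RNA-binding proteins and ubiquitin ligases.

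The libraries held 35019033 to 45636131 reads, recovered from the FPKM values, and the Zfp genes had 70 to 6204 reads per gene and library with a median of 523.5. Nsun2, the targeted gene, was at 0.967, 1.36 and 0.863 FPKM in NSUN2-KO and at 1.88, 2.04 and 1.84 FPKM in NC. Its RNA was thus lower without being absent (log2 fold change -0.51, SE 0.10, limma adjusted p = 0.0228; exact two-sided permutation p = 0.1, the smallest that 3 against 3 allows). This call ended in 6 of 17 alternative settings, namely without the filter on low genes and without any 1 of 5 libraries (limma adjusted p 0.0532 to 0.113). All 8 macrophage markers examined were well above threshold, with 3 lower in NSUN2-KO (Lyz2, Fcgr1 and Cd68), 1 higher (Cd14) and 4 not called (Adgre1, Csf1r, Itgam and Mertk). Their summed level was 3368 to 3409 FPKM in NSUN2-KO and 3929 to 4018 FPKM in NC, and the difference lay mostly in Lyz2, at 1124 to 1215 FPKM in NSUN2-KO and 1708 to 1769 FPKM in NC. No marker of T and NK cells, B cells or fibroblasts reached a mean of 1 FPKM. The 7 fibroblast markers summed to 0.754 to 1.04 FPKM in NSUN2-KO and 1.52 to 1.72 FPKM in NC. Not all of them went this way, with Dcn at 0.260 to 0.337 FPKM in NSUN2-KO and 0.0437 to 0.191 FPKM in NC. The sums for T and NK cells and for B cells overlapped between the groups. Of 10 neutrophil markers 5 were tested and 3 of these (Csf3r, Mmp8, S100a9) were lower, with summed levels over all 10 of 79.8 to 83.7 FPKM in NSUN2-KO and 98.9 to 107 FPKM in NC, and with Elane at 0 in every library. Of 7 dendritic cell markers 2 were tested and 1 (Ccr7) was higher, with summed levels over all 7 of 8.26 to 9.42 FPKM in NSUN2-KO and 5.10 to 6.14 FPKM in NC. The Y-linked gene Ddx3y was at 0 in every NSUN2-KO library and at 6.10 to 6.95 FPKM in NC. Xist was at 29.4 to 31.8 FPKM in NSUN2-KO and 14.0 to 15.5 FPKM in NC. Each NC library thus held both Y-linked RNA and Xist, and whether it mixed cells of male and female mice was not tested. The sex of the cells and the genotype cannot be told apart. The part of these shifts in the values below was not tested. In bulk RNA, fewer cells of a type and less RNA per cell cannot be told apart either.

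The Zfp genes as a family were low in both groups. Their mean levels ran from 1.02 to 23.1 FPKM. A mean below 5 FPKM was found for 137 of them, 62 lay between 1 and 2 FPKM, and 3 reached 20 FPKM. Just inside the threshold were Zfp653, with 0.837, 1.10 and 1.20 FPKM in NSUN2-KO and 1.14, 0.778 and 1.07 FPKM in NC, and Zfp953, with 1.09, 0.993 and 0.860 FPKM in NSUN2-KO and 1.37, 0.957 and 0.928 FPKM in NC. Just outside were Zfp1, with 1.35, 0.782 and 1.16 FPKM in NSUN2-KO and 1.05, 0.824 and 0.801 FPKM in NC, and Zfp867, with 1.21, 1.22 and 1.19 FPKM in NSUN2-KO and 0.728, 0.838 and 0.741 FPKM in NC. In 3 of the 185 (Zfp953, Zfp512b and Zfp653) the mean of 1 group was below 1 FPKM. The other 209 Zfp genes fell below the threshold, and 27 of these were at 0 in every library.

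The summed level of the 185 genes differed between the groups by less than the spread of replicates. It was 749.1, 757.1 and 740.6 FPKM in NSUN2-KO (748.9 ± 8.25, SD, n = 3) and 765.8, 735.7 and 744.3 FPKM in NC (748.6 ± 15.5, SD, n = 3), with the highest and the lowest library both in NC.

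Gene by gene, 1 Zfp gene was higher and 1 was lower in NSUN2-KO at a limma adjusted p below 0.05 (log2(FPKM + 1), Benjamini-Hochberg over all 9443 tested genes). Of all tested genes 4.19% were higher and 4.3% lower, or 8.49% in either direction, against 1.08% of the Zfp genes. The share of called genes rose with level among all tested genes, at 2.6% for means of 1 to 2 FPKM, 4.46% for 2 to 5 FPKM, 8.92% for 5 to 20 FPKM and 17.2% above that. Of the 45 Zfp genes between 5 and 20 FPKM, 2 were called, which is 4.44%. An unadjusted p below 0.05 was reached by 10 higher and 17 lower Zfp genes, or 14.6%, against 25.5% of all tested genes. The 3 NSUN2-KO libraries lay entirely above the 3 NC libraries for 16 Zfp genes and entirely below them for 27, or 23.2%, against 31.1% of all tested genes.

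The differences were small as well as few. Log2 fold changes ran from -0.27 (Zfp628) to 0.31 (Zfp292) with a median of -0.01, which was also the median over all tested genes, and 85 of the 185 were above 0 (45.9%, against 48.2% of all tested genes). The median size without regard to sign was 0.07, against 0.08 over all tested genes. The median SE was 0.073, against 0.062 over all tested genes. The 95% limma interval lay within a 1.5-fold change in either direction for all 185 Zfp genes and for 95.1% of all tested genes, on the log2(FPKM + 1) scale, where changes of low genes come out too small. As plain ratios of mean FPKM, NSUN2-KO over NC, the extremes were 0.775 (Zfp119a) and 1.33 (Zfp719).

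**Figure D1:**
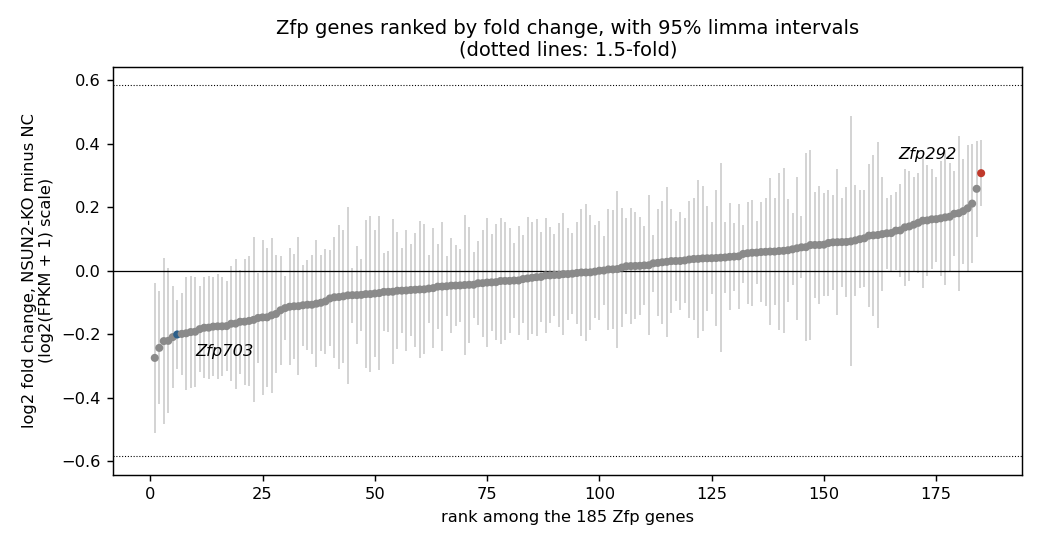
Log2 fold change (NSUN2-KO minus NC, log2(FPKM + 1) scale) of the 185 Zfp genes in rank order, with 95% limma intervals; the coloured points are the 2 genes at an adjusted p below 0.05. Values run from -0.27 to 0.31, and every interval lies between the dotted lines at 1.5-fold.

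Zfp292 was the gene that was higher. It encodes a very large finger protein whose rat homologue binds the growth hormone promoter, and the human gene is known as a tumour suppressor. It was at 11.6, 10.9 and 11.3 FPKM in NSUN2-KO and at 9.19, 8.60 and 8.91 FPKM in NC. All 3 NSUN2-KO libraries were above all 3 NC libraries, and the ratio of means was 1.26 (log2 fold change 0.31, SE 0.04, limma adjusted p = 0.00735). The gene lies on the minus strand at chr4:34803113-34882960 (GRCm38).

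Zfp703 was the gene that was lower. It encodes a NET-family corepressor that binds Groucho/TLE proteins, and its product has no run of classical fingers. It was at 9.76, 9.08 and 9.54 FPKM in NSUN2-KO and at 11.3, 11.2 and 10.6 FPKM in NC. All 3 NSUN2-KO libraries were below all 3 NC libraries, with a ratio of means of 0.858 (log2 fold change -0.20, SE 0.05, limma adjusted p = 0.0384). The gene lies at chr8:26977325-26981461 (GRCm38). This call ended in 12 of 18 alternative settings, and after removal of the trends with GC content and length the log2 fold change was -0.11 (limma adjusted p = 0.232).

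The genes nearest to a call, named after their values were seen, were Zfp719, Zfp212, Zfp219 and Zfp276. Zfp719, which carries a KRAB pattern, was at 2.03, 2.13 and 1.90 FPKM in NSUN2-KO and at 1.51, 1.52 and 1.54 FPKM in NC (log2 fold change 0.26, SE 0.07, limma adjusted p = 0.0509). Zfp212 was at 3.47, 3.70 and 3.34 FPKM in NSUN2-KO and at 4.07, 4.10 and 4.35 FPKM in NC (log2 fold change -0.20, SE 0.06, limma adjusted p = 0.0717). Zfp219, a cofactor of SOX9 in mouse cartilage cells, was at 1.81, 1.83 and 1.92 FPKM in NSUN2-KO and at 2.28, 2.17 and 2.71 FPKM in NC (log2 fold change -0.24, SE 0.08, limma adjusted p = 0.0966). The groups did not overlap for any of these 3 genes, yet none passed the adjusted threshold. Zfp276 was at 6.52, 5.96 and 6.32 FPKM in NSUN2-KO and at 6.91, 7.82 and 7.06 FPKM in NC (log2 fold change -0.18, SE 0.06, limma adjusted p = 0.0966). It overlaps Vps9d1 and Fanca on the opposite strand, and without a stated strand setting their reads cannot be told apart.

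**Figure D2:**
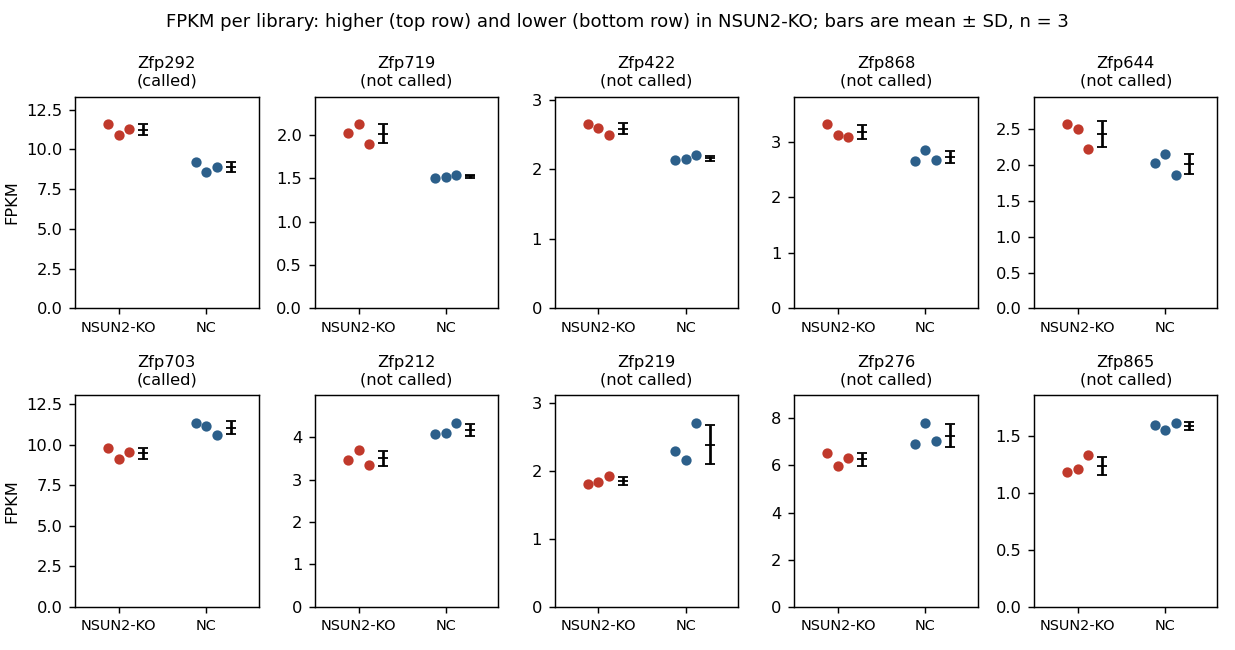
FPKM in each library for the 5 higher and the 5 lower Zfp genes with the smallest p, NSUN2-KO left and NC right in each panel; bars are mean ± SD (n = 3) and each axis starts at 0. The groups are apart in all 10 panels, and in Zfp292 and Zfp703 the adjusted p is below 0.05.

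Stretches that encode the first finger of Zfp292, Zfp719, Zfp212 and Zfp219 show the unit that the family repeats, and that its base composition can differ between genes. Each runs 5′ to 3′ on the coding strand, was read from the GENCODE transcripts on GRCm38, and has the codons of the zinc-binding cysteines and histidines in capitals. The GC content of the stretch was 38.1% in Zfp292 and 46.0% in Zfp719, the higher genes, and 55.6% in Zfp212 and 54.0% in Zfp219, the lower ones. They were taken from the genes at or near a call, with Zfp276 and Zfp703 left out, so this contrast does not stand for the family. Zfp703, the gene called lower, has no classical finger pattern, and Zfp292 is the only called gene among those shown. Of the 17 Zfp genes lower at an unadjusted p below 0.05, 4 had a transcript GC content not above 50%.
Zfp292: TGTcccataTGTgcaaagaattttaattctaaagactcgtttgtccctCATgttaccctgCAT
Zfp719: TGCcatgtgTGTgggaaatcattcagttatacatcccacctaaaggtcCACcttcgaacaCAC
Zfp212: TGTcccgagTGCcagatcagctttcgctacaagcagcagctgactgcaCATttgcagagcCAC
Zfp219: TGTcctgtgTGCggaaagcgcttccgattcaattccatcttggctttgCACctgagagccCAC

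The most abundant Zfp RNAs were those of Zfp281, Zfp800, Zfp207, Zfp710, Zfp91 and Zfp984, and none passed the adjusted threshold. Zfp281, which encodes a GC-rich-promoter binder known from pluripotent mouse cells, was at 24.8, 24.6 and 22.9 FPKM in NSUN2-KO and at 23.2, 20.8 and 22.4 FPKM in NC (log2 fold change 0.12, SE 0.05, limma adjusted p = 0.197). Zfp800 was at 23.4, 24.3 and 21.5 FPKM in NSUN2-KO and at 21.98, 20.9 and 20.3 FPKM in NC, so that its groups overlapped (log2 fold change 0.13). Zfp710 was at 19.0, 17.9 and 18.9 FPKM in NSUN2-KO and at 19.7, 19.6 and 19.9 FPKM in NC, where all 3 NSUN2-KO libraries were below NC by a small margin (log2 fold change -0.08, limma adjusted p = 0.247). Zfp984 was at 14.0, 13.3 and 13.3 FPKM in NSUN2-KO and at 13.1, 11.1 and 12.8 FPKM in NC, and 57.4% of the 50-base stretches of its transcript also occur in transcripts of other genes, which makes its counts uncertain.

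Among Zfp proteins that bind RNA or act in translation, 11 were tested, with a median log2 fold change of -0.01. Of these 0 were higher and 0 lower, with 3 (27.3%) at an unadjusted p below 0.05. Among all tested genes 8.49% were called and 25.5% were at an unadjusted p below 0.05. Zfp207 encodes BuGZ, a chaperone of the spindle checkpoint protein BUB3. It was at 19.6, 22.6 and 21.5 FPKM in NSUN2-KO and at 20.04, 17.3 and 19.3 FPKM in NC, overlapping in 1 library (log2 fold change 0.16, SE 0.07, limma adjusted p = 0.184). Zfp106, which encodes an RNA-binding protein needed in mouse motor neurons, was at 10.9, 10.2 and 11.3 FPKM in NSUN2-KO and at 10.4, 10.3 and 10.6 FPKM in NC (log2 fold change 0.04). Zfp385a, a p53-regulated RNA-binding protein, was at 5.51, 5.96 and 6.90 FPKM in NSUN2-KO and at 7.01, 7.07 and 6.99 FPKM in NC, with the third NSUN2-KO library close to NC (log2 fold change -0.18, SE 0.07, limma adjusted p = 0.173). Zfp830 was at 7.24, 6.75 and 7.13 FPKM in NSUN2-KO and at 7.82, 7.36 and 7.26 FPKM in NC (log2 fold change -0.08).

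Zfp598 encodes the E3 ligase that marks collided ribosomes for quality control, and was examined both with the translation genes and with the ubiquitin and membrane genes. It was at 4.94, 4.34 and 4.78 FPKM in NSUN2-KO and at 5.51, 5.80 and 4.97 FPKM in NC (log2 fold change -0.18, SE 0.07, limma adjusted p = 0.152). The groups did not overlap, with the lowest NC library just above the highest NSUN2-KO library. Zfp91, a ubiquitin ligase of the kinase NIK, was at 13.7, 14.1 and 13.5 FPKM in NSUN2-KO and at 14.3, 12.7 and 13.3 FPKM in NC (log2 fold change 0.04). Zfpl1, a Golgi membrane protein, was at 7.90, 7.29 and 7.88 FPKM in NSUN2-KO and at 6.99, 8.55 and 7.83 FPKM in NC (log2 fold change -0.01). All 3 of the tested genes of this kind stayed above the threshold, with 0 called, where 8.49% of all tested genes were called.

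Among the promoter-binding Zfp genes, 14 were tested, with a median log2 fold change of -0.02. Of these 0 were higher and 0 lower, with 1 (7.14%) at an unadjusted p below 0.05 (Zfp219, given above). The shares of all tested genes were 8.49% called and 25.5% at an unadjusted p below 0.05. Zfp263 was at 11.1, 11.6 and 11.2 FPKM in NSUN2-KO and at 12.3, 11.2 and 11.8 FPKM in NC (log2 fold change -0.06). Zfp740 was at 11.0, 10.3 and 11.5 FPKM in NSUN2-KO and at 10.7, 10.8 and 10.3 FPKM in NC (log2 fold change 0.04). Zfp384 (NMP4), a nuclear matrix-associated factor, was at 10.3, 9.47 and 10.3 FPKM in NSUN2-KO and at 10.7, 11.0 and 9.996 FPKM in NC (log2 fold change -0.07). In each of these 3 genes the ranges of both groups overlapped. Zfp410, named after its values were seen, encodes an activator that in mouse cells acts almost wholly on Chd4. It was at 2.77, 2.65 and 2.90 FPKM in NSUN2-KO and at 2.94, 2.81 and 2.98 FPKM in NC, and Chd4 was at 37.8, 37.4 and 39.7 FPKM in NSUN2-KO and at 38.9, 39.2 and 38.1 FPKM in NC. Neither gene differed beyond its spread (log2 fold changes -0.05 and -0.02).

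The list of corepressor and chromatin-complex genes, drawn up with earlier results of these data known, held both called genes. For Zfp292 no such role is given here. Of its genes 18 were tested, with 1 higher, 1 lower and 4 at an unadjusted p below 0.05. Their median log2 fold change was 0.06. These shares, 11.1% called and 22.2% at an unadjusted p below 0.05, lie near the 8.49% and 25.5% of all tested genes. Zfp516 was at 8.97, 8.37 and 8.91 FPKM in NSUN2-KO and at 8.61, 9.33 and 9.26 FPKM in NC (log2 fold change -0.05). Zfp217, a partner of CoREST and CtBP, was at 7.35, 7.09 and 7.60 FPKM in NSUN2-KO and at 8.08, 8.09 and 8.01 FPKM in NC (log2 fold change -0.12, SE 0.04, limma adjusted p = 0.138). Its groups were apart, by less than 1 FPKM. The fourth gene, Zfp644, encodes a partner of the H3K9 methyltransferases G9a and GLP, and was at 2.57, 2.50 and 2.22 FPKM in NSUN2-KO and at 2.03, 2.15 and 1.86 FPKM in NC (log2 fold change 0.19, SE 0.07, limma adjusted p = 0.148). Zfp809, which silences murine leukaemia proviruses in mouse cells and was also named after its values were seen, was at 1.57, 1.53 and 1.67 FPKM in NSUN2-KO and at 1.21, 1.46 and 1.40 FPKM in NC (log2 fold change 0.14, SE 0.08, limma adjusted p = 0.292).

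A KRAB pattern was found in the translated sequence of 87 of the 185 genes, and these had a median of 11 fingers against 7 in the 98 genes without it. The number of fingers ran from 0 to 36 over all of them, and 5 genes, among them Zfp703 and Zfpl1, had no classical finger pattern. The KRAB genes gave 0 higher and 0 lower calls, 8 at an unadjusted p below 0.05, and a median log2 fold change of 0.00. The genes without the pattern gave 1 higher and 1 lower call, 19 at an unadjusted p below 0.05, and a median of -0.01. The shares at an unadjusted p below 0.05 were 9.20% with the pattern and 19.4% without it, against 25.5% of all tested genes, of which 8.49% were called. The difference between both kinds of Zfp genes was not tested. The summed level of the KRAB genes was 275.6, 280.5 and 266.7 FPKM in NSUN2-KO and 283.4, 262.0 and 270.4 FPKM in NC, so that the groups overlapped. Across the 185 genes the Spearman correlation of the log2 fold change was -0.04 with the number of fingers and 0.03 with the mean level, both given as descriptions over genes measured in the same 6 libraries.

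Of 23 tested genes of the silencing machinery that KRAB factors depend on, 1 was higher and 0 were lower, with 4 at an unadjusted p below 0.05. These shares, 4.35% called and 17.4% at an unadjusted p below 0.05, compare with 8.49% and 25.5% of all tested genes. Trim28, the corepressor itself, was at 10.6, 10.3 and 9.94 FPKM in NSUN2-KO and at 10.3, 10.2 and 10.2 FPKM in NC (log2 fold change 0.00, SE 0.04). Hdac1, a deacetylase of the NuRD complex, was higher, at 40.6, 40.7 and 39.1 FPKM in NSUN2-KO and at 34.8, 34.7 and 34.9 FPKM in NC (log2 fold change 0.20, SE 0.03, limma adjusted p = 0.0111). Setdb1, the H3K9 methyltransferase that TRIM28 recruits, was at 6.68, 6.83 and 6.83 FPKM in NSUN2-KO and at 6.36, 6.12 and 6.12 FPKM in NC (log2 fold change 0.11, SE 0.04, limma adjusted p = 0.154). Ehmt2, which encodes G9a, was at 20.8, 21.2 and 21.0 FPKM in NSUN2-KO and at 21.9, 23.7 and 22.3 FPKM in NC (log2 fold change -0.10, limma adjusted p = 0.162). Chd3, a remodelling subunit of NuRD, was at 4.31, 4.03 and 4.43 FPKM in NSUN2-KO and at 4.68, 4.93 and 4.66 FPKM in NC (log2 fold change -0.13, limma adjusted p = 0.175). The groups were apart for Hdac1, Setdb1, Ehmt2 and Chd3, and Hdac1 was the only one called. Completing the set, they were also apart for Atrx, Smarcad1 and Atf7ip. Of all tested genes 31.1% had groups apart.

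The log2 fold changes of Zfp genes were lower at a higher GC content of the transcript, and so were those of all tested genes. The Spearman correlation over the 185 genes was -0.34, against -0.37 over the 9433 tested genes with a GC value. In 4 classes of Zfp genes from low to high GC content, near equal in size and with bounds at 39.9%, 43.9% and 52.0%, the genes above 0 numbered 27 of 47, 30 of 46, 20 of 46 and 8 of 46. The median log2 fold changes were 0.01, 0.02, -0.01 and -0.07, where all tested genes in the same GC ranges had 0.07, 0.06, 0.01 and -0.06. Of all tested genes in those ranges 75.5%, 71.5%, 51.8% and 28.4% were above 0. In the highest class the summed level was 189.2, 182.7 and 188.0 FPKM in NSUN2-KO and 196.7, 203.6 and 198.9 FPKM in NC, with no overlap, and 14 of its 46 genes (30.4%) were entirely lower in NSUN2-KO, against 27.7% of all tested genes in that GC range. In the lowest class the sums overlapped, at 173.4, 184.0 and 163.9 FPKM in NSUN2-KO and 179.4, 159.5 and 164.7 FPKM in NC. Of the 17 Zfp genes lower at an unadjusted p below 0.05, 13 had a GC content above 50%, and of the 10 higher ones 1 did. Among all tested genes those shares were 73.1% of the lower and 23.6% of the higher genes. After removal of each library's trends with GC content and gene length, 1 Zfp gene was higher (Zfp292) and 0 were lower. The Spearman correlation over the Zfp genes was then 0.12, and 8.75% of all tested genes were called. From the lowest to the highest class, 12 of 47, 17 of 46, 20 of 46 and 17 of 46 Zfp genes were then above 0. Their medians were -0.05, -0.04, -0.02 and -0.02. The median GC content was 40.2% in genes with a KRAB pattern and 49.7% in those without.

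**Figure D3:**
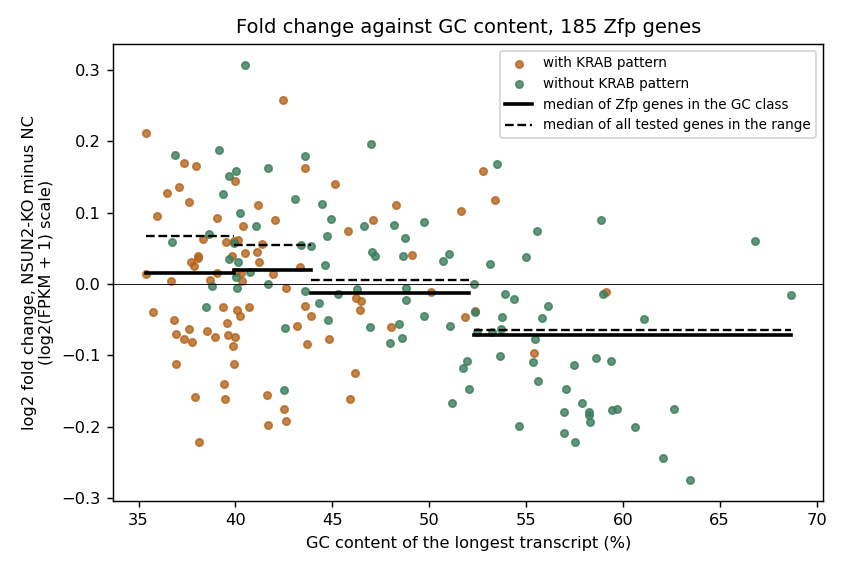
Log2 fold change (NSUN2-KO minus NC, log2(FPKM + 1) scale) of the 185 Zfp genes against the GC content of the longest transcript in percent, coloured by the presence of a KRAB pattern. Solid bars are medians of the Zfp genes by GC class (0.01, 0.02, -0.01 and -0.07) and dashed bars the medians of all tested genes in the same ranges (0.07, 0.06, 0.01 and -0.06).

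The 185 genes lay on 20 chromosomes, with 38 on chromosome 7, 28 on chromosome 17, 15 on chromosome 13 and 14 on chromosome 8, or 95 in all. On chromosome 7 the median log2 fold change was -0.02 (14 above 0, 24 below), against -0.04 for all 685 tested genes of that chromosome. On chromosome 17 it was -0.03 (13 above 0, 15 below), against -0.04 for all 498 tested genes there. The median was above 0 on 9 chromosomes and below 0 on 11. The highest, 0.10, was on chromosome 4, which holds Zfp292 and 9 other Zfp genes, against -0.01 for all 583 tested genes there. The call of Zfp703 on chromosome 8 and that of Zfp292 on chromosome 4 were the only ones, and the other 18 chromosomes held 0 called Zfp genes. Of all tested genes 9.41% were called on chromosome 8, 8.58% on chromosome 4 and 8.49% over all chromosomes.

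**Figure D4:**
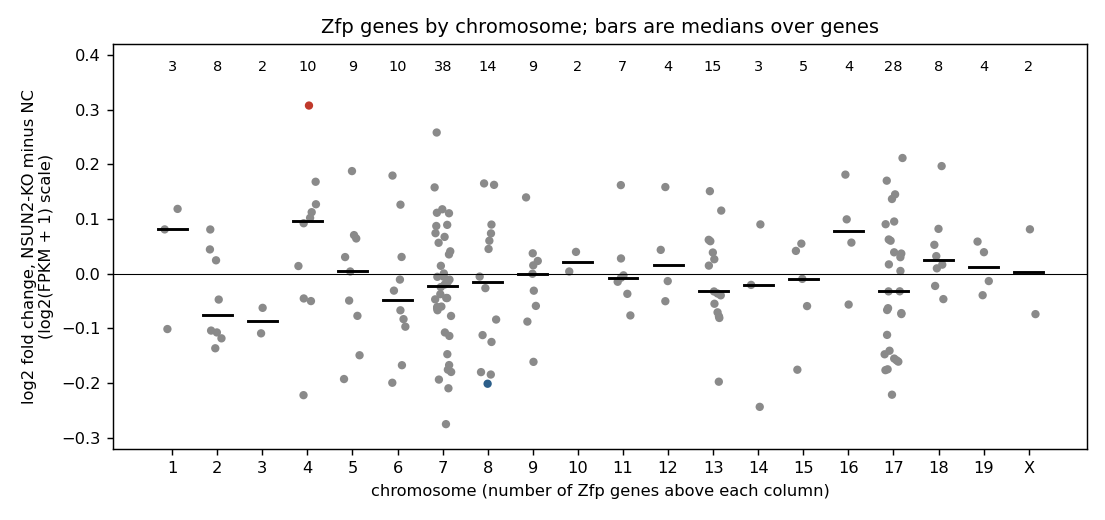
Log2 fold change (NSUN2-KO minus NC, log2(FPKM + 1) scale) of each Zfp gene by chromosome, with the number of genes above each column and the median over genes as a bar. The coloured points are Zfp292 on chromosome 4 and Zfp703 on chromosome 8, and the medians run from -0.09 to 0.10.

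Nsun2 itself lies on chromosome 13, at chr13:69533746-69635780 (GRCm38), near a cluster of KRAB-type genes. Within 10 Mb of it were 12 of the Zfp genes, of which 0 were called, 6 were above 0 and 6 below, with a median log2 fold change of -0.01. The nearest was Zfp65, at a distance of 1.805 Mb. Of all 64 tested genes in this window 4.69% were called, 0 higher and 3 lower.

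Among neighbouring copies, log2 fold changes mostly lay on both sides of 0. Runs of at least 3 Zfp genes, each within 500 kb of the next, numbered 14, and 12 of these had genes on both sides. The runs held 78 of the 185 genes, with 0 called and 9 (11.5%) at an unadjusted p below 0.05. Outside the runs 1.87% of Zfp genes were called and 16.8% had such a p, against 8.49% and 25.5% of all tested genes. The longest run, on chromosome 17, held 17 genes from Zfp160 to Zfp40, all with a KRAB pattern and a GC content of 35.4% to 40.7%. Of these 10 were above 0 and 7 below, from -0.16 (Zfp994) to 0.21 (Zfp758). Zfp758 was at 4.95, 6.13 and 5.33 FPKM in NSUN2-KO and at 5.01, 4.41 and 4.31 FPKM in NC, and the groups overlapped (limma adjusted p = 0.15). The run on chromosome 13 near Nsun2 held 9 genes from Zfp455 to Zfp65, with 5 above 0 and 4 below. Its lowest gene, Zfp429, was at 6.35, 7.09 and 5.50 FPKM in NSUN2-KO and at 7.39, 7.44 and 7.22 FPKM in NC (log2 fold change -0.20, SE 0.08, limma adjusted p = 0.158), and 25.3% of its 50-base stretches occur in other genes.

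Both runs with a median GC content above 50% lay mostly below 0. On chromosome 6 all 5 genes of a run (Zfp282, Zfp212, Zfp777, Zfp746 and Zfp467) were below 0, from -0.20 to -0.01, with a GC content of 54.7% to 59.1%. In 1 of the 5 (Zfp212) the groups did not overlap, where 31.1% of all tested genes had groups apart. On chromosome 7 the run of 8 genes from Zfp553 to Zfp646 had 7 below 0 and 1 above, with a GC content of 51.9% to 68.7%. The groups did not overlap for 3 of these 8, all lower in NSUN2-KO. In that run Zfp553 was at 1.26, 1.18 and 1.21 FPKM in NSUN2-KO and at 1.41, 1.54 and 1.57 FPKM in NC (log2 fold change -0.18, SE 0.07, limma adjusted p = 0.157). Zfp768 was at 6.13, 5.79 and 5.14 FPKM in NSUN2-KO and at 6.31, 6.37 and 6.94 FPKM in NC (log2 fold change -0.18, SE 0.07, limma adjusted p = 0.15). A run of lower GC content on chromosome 17, from Zfp871 to Zfp414, had 5 of 6 genes below 0, with a median GC content of 40.8%. The part of GC content in these runs was not tested.

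**Figure D5:**
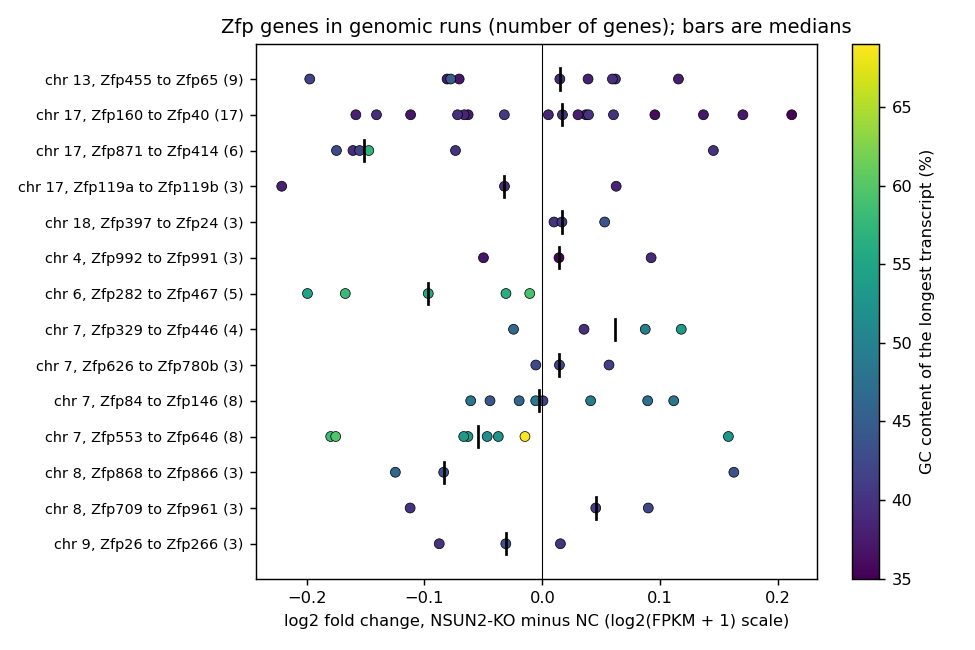
Log2 fold change (NSUN2-KO minus NC, log2(FPKM + 1) scale) of the 78 Zfp genes in 14 genomic runs, each run named by its first and last gene with the number of genes in parentheses; the bars are medians and the colour is the GC content of the longest transcript in percent. Points of the run on chromosome 17 from Zfp160 to Zfp40 lie on both sides of 0, and all 5 of the run on chromosome 6 lie below it.

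Which single Zfp genes were called depended on the test. Limma voom on the recovered reads, which weights each gene by its depth and adds no FPKM, called 5 Zfp genes higher (Zfp292, Zfp644, Zfp719, Zfp277 and Zfp207) and 4 lower (Zfp865, Zfp703, Zfp276 and Zfp628), where it called 8.13% of all tested genes higher and 6.71% lower. On that scale Zfp719 had a log2 fold change of 0.41 (SE 0.12, voom adjusted p = 0.0188) and Zfp865 of -0.35 (SE 0.09, voom adjusted p = 0.0129). The 9 genes are 4.86% of the Zfp genes. Of those not called on log2(FPKM + 1), Zfp719 carries a KRAB pattern, Zfp207 is among the RNA and translation genes, and Zfp644 and Zfp277 are among the corepressor genes. Rescaling by median ratios gave 2 higher and 1 lower, and rescaling to TPM gave 1 higher and 0 lower. The shares of all tested genes called with these rescalings are not given here.

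Some Zfp genes share sequence with others, and their reads may be split between copies by the counting. In 19 of the 185, more than 20% of the 50-base stretches of the transcript occur in transcripts of other genes, with the largest shares in Zfp991 (87.0%) and Zfp993 (86.8%), and 13 overlap another tested gene on the opposite strand. The 2 called genes are in neither set.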

How the data were processed

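The authors deposited FPKM values per gene, with the gene length they used, for 3 NSUN2-KO and 3 NC libraries. The submitters' processing notes name the build GRCm38 and, with no role stated, HISAT2 2.0.5, featureCounts 1.5.0-p3, CASAVA 1.8, DESeq2 1.20.0 and fastp. Settings, annotation release and strand use were each not given in the sources used here. By the series' design text there were 3 biological replicates per group, elsewhere fewer. Multiplied by gene length, FPKM fell on whole steps of 1 size per library for 100% of values above 0 (tolerance 0.01 reads), from which reads were recovered. Positions of genes come from the deposited table.

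All genes whose mean reached 1 FPKM were fitted together on log2(FPKM + 1) in limma 3.58.1 (under R 4.3.3) with a trend of the variance over level, and adjusted by Benjamini-Hochberg over all 9443. The fit was tested on simulated data. Log2 fold changes are NSUN2-KO minus NC. GC content is that of the longest GENCODE transcript on GRCm38, its trend was taken out by loess (span 0.5), and finger and KRAB patterns and shared 50-base stretches were searched by script in the same transcripts. Python 3.11.15 and pandas 2.3.3 were used for the summaries. Members, lists and tests were chosen with earlier results of these data known. Genes named were the called ones, the 6 highest, those next to the threshold, up to 4 per role list by level, Trim28 and 4 silencing genes by p, members of runs, and Nsun2 and sex-linked genes; any other gene is marked as named after its values were seen, or completes a small count. Alternatives were other pseudocounts, filters, scalings, voom, the replicate block and leaving out each library.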

Additional observations from a re-analysis of the deposited data

How the results depend on the processing

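Zfp292 stayed higher in all 18 alternatives (adjusted p 2.46e-05 to 0.0404), and Zfp703 kept its sign but passed the threshold in 6 (adjusted p 0.0241 to 0.232). Higher Zfp genes numbered 5 with limma voom and 2 with median ratios, without the mean-variance trend, among protein-coding genes only or with a pseudocount of 5 FPKM. Lower Zfp genes numbered 4 with limma voom and 0 with rescaling to TPM, no filter, or removal of the GC and length trends. Of all tested genes limma voom called 8.13% higher and 6.71% lower, and the fit with both trends removed called 8.75% in either direction. For all other alternatives this share is not given here, so their counts are not set against all tested genes. Without the mean-variance trend the 1 lower gene was Zfp865 and not Zfp703. Leaving out 1 library at a time gave 1 higher gene each time and 0 to 1 lower, where the 1 (without NSUN2-KO replicate 3) was Zfp385a (adjusted p = 0.046) and not Zfp703. The median log2 fold change of the Zfp genes was -0.033 after removal of the GC and length trends and 0.0073 among the 48 with at least 5 FPKM. Without single libraries it ran from -0.02 to 0.00. Nsun2 was not called without the filter (log2 fold change -0.51, adjusted p = 0.113) or when any 1 of 5 libraries was left out (log2 fold change -0.53 to -0.44, adjusted p 0.0532 to 0.0848), and without NSUN2-KO replicate 2 it was -0.61. For the 39 single genes followed, 599 of 686 values kept their call within the spread, 12 lost a call, 13 gained one, 62 moved and 0 reversed a call. Of these genes 1 (Zfpl1) changed sign in some settings, with log2 fold changes from -0.08 to 0.06, and it was called in 0. The cause of these changes was not tested.

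Replicate numbers did not pair the libraries: the deviations of same-numbered libraries correlated at -0.0298 to 0.00343. With the replicate number as a block, 1 Zfp gene was higher and 0 were lower, and with the GC trend removed as well the counts were 1 and 0 and the median was -0.033. Fits with edgeR and DESeq2 on the recovered reads were not run, since the deposited unit is FPKM, and voom used median-ratio scaling in place of TMM. Depth limits the low genes, whose fold changes the added 1 FPKM shrinks.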

Other observations

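Of the 209 Zfp genes below 1 FPKM, 116 had a mean of 0.1 to 1 FPKM, 66 were lower but above 0, and 27 were at 0 in every library. In a limma fit without the filter, 182 of them were fitted, 0 were called and 8 had an unadjusted p below 0.05. The shares of all genes in that fit are not given here, so no result is read from these counts. In the main fit, 2.6% of all tested genes with a mean of 1 to 2 FPKM were called, and 12.1% had such a p. The largest difference among the 182 genes was that of Zfp811, a gene of chromosome 17 named after its values were seen. It was at 0.921, 0.931 and 0.685 FPKM in NSUN2-KO and at 0.352, 0.303 and 0.325 FPKM in NC (log2 fold change 0.47, SE 0.08, limma adjusted p = 0.0682). Its NSUN2-KO libraries were all above its NC libraries. Zfp867, just under the threshold, had a log2 fold change of 0.32 (SE 0.07, limma adjusted p = 0.131) in the same fit.

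Other zinc finger families, set beside the Zfp genes by symbol, had 0 to 3 calls each, where 8.49% of all tested genes were called. The Zbtb genes had 0 of 29 called, with 5 at an unadjusted limma p below 0.05. The Zscan and Zkscan genes had 1 of 11, with Zkscan3 lower at 5.21, 4.46 and 4.96 FPKM in NSUN2-KO and 6.45, 6.18 and 5.96 FPKM in NC (log2 fold change -0.29, SE 0.06, limma adjusted p = 0.0276). The Klf genes had 1 of 10, with Klf10, a TGF-β-inducible factor, higher at 17.2, 17.2 and 17.1 FPKM in NSUN2-KO and 14.6, 13.4 and 14.8 FPKM in NC (log2 fold change 0.25, SE 0.04, limma adjusted p = 0.0161). The Zc3h genes, whose CCCH fingers bind RNA, had 2 of 14, both of the Regnase group: Zc3h12c was higher, at 13.01, 12.01 and 12.4 FPKM in NSUN2-KO and 10.7, 10.4 and 9.40 FPKM in NC, and Zc3h12d was lower, at 21.2, 20.5 and 19.9 FPKM in NSUN2-KO and 24.4, 25.7 and 24.4 FPKM in NC. Their log2 fold changes were 0.27 (limma adjusted p = 0.0263) and -0.26 (limma adjusted p = 0.00955). The Zdhhc palmitoyltransferases had 1 of 18 called, the Rnf genes 3 of 55 and the Trim genes 2 of 32. No difference between these families and the Zfp genes was tested.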
